A study of Homo sapiens with 6 samples.

Results

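The mitochondrial small ribosomal proteins described here were 32 of the 60617 genes in the count table. They were the protein-coding genes whose symbol is MRPS followed by digits, with or without a final letter A, B or C, together with DAP3, AURKAIP1 and PTCD3, which encode further proteins of the same subunit. RNA of the human lung cancer line NCI-H1299 was sequenced in 3 libraries with the genotype FuHsi knockdown, titled Sh1, and in 3 control libraries with the genotype WT, titled Puro. No other treatment or time point separates the groups in the labels, and the stated aim of the series was to find a nucleolar role of FuHsi. The labels spell out neither Sh1 nor Puro and do not say whether the libraries of a group came from separate cultures, so the p-values reflect no more than the spread among these libraries, and that spread may be technical. All 3 knockdown libraries carry the same Sh1 label and come from 1 cell line, so an effect particular to either cannot be told apart from that of the knockdown. FuHsi could not be matched to a gene symbol, and its own transcript was not analysed here.

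Mitochondria carry their own ribosome, which translates the few messages encoded by mitochondrial DNA, all of them for subunits of the respiratory chain and ATP synthase. Its ribosomal RNAs are transcribed inside the organelle, while every one of its proteins is encoded in the nucleus, made in the cytosol and imported. The small subunit binds the message and holds the decoding site. Part of its proteins descend from bacterial ribosomal proteins, and others were added in the mitochondrial lineage.

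The 6 libraries held 24231515 to 27900051 counts in the knockdown and 30735547 to 34306849 in the control, so every knockdown library was shallower than every control library. The TMM scaling factors, which correct each library for its composition, also separated the groups, at 1.05 to 1.06 in the knockdown and 0.94 to 0.95 in the control. KRT8, KRT18 and VIM, filament genes of epithelial and mesenchymal cells, were abundant. Of these, KRT8 and VIM were called lower in the knockdown, at log2 fold changes of -0.63 and -0.70, and KRT18 was not called, while FN1, a matrix gene on the mesenchymal list, was called higher at 0.93. NAPSA and PTPRC, at no more than 25 counts in any library, were also called higher, at 3.22 and 1.43. The part of these marker differences in the results below was not tested. The other 7 of 9 lung epithelial markers examined, the defining NKX2-1, SFTPB and SFTPC included, held 30 to 39 counts together in a knockdown library and 14 to 38 in a control library, and SFTPC was at 0 in all 6, so markers that define lung epithelium were at or near 0 in cells labelled lung adenocarcinoma. All 5 immune and endothelial markers together held 36 to 46 counts in a knockdown library and 21 to 30 in a control library. In bulk RNA, fewer cells of a kind and less RNA per cell cannot be told apart.

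Transcripts of the mitochondrial small ribosomal proteins were mostly lower after the knockdown. All 32 passed the filter on low counts, and 26 of them were called lower at an adjusted p under 0.05 by edgeR's quasi-likelihood test, against 30.9% of the 17223 genes tested and 37.3% of the 13331 tested protein-coding genes. MRPS10 alone was called higher, where 30.7% of all tested genes and 32.2% of protein-coding ones were. The other 5, which were MRPS11, MRPS18C, MRPS24, MRPS30 and MRPS31, did not pass the test. The median log2 fold change of the 32, knockdown over control, was -0.29, against 0.03 over all tested genes and -0.02 over protein-coding genes. Most of the falls were small: 20 of the 26 were under 0.5 on the log2 scale, 4 lay between 0.5 and 1, and only MRPS14 and MRPS26 were at least 2-fold lower, as 3.12% of all tested genes were. All 3 knockdown libraries lay below all 3 control libraries for 27 of the 32, against 32.3% of tested genes. With libraries scaled by their totals alone, 15 of the 32 were called lower and 1 higher, against 22.4% and 40.6% of all tested genes. The median over all tested genes then stood at 0.18 and that of the 32 at -0.13.

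**Figure D1:**
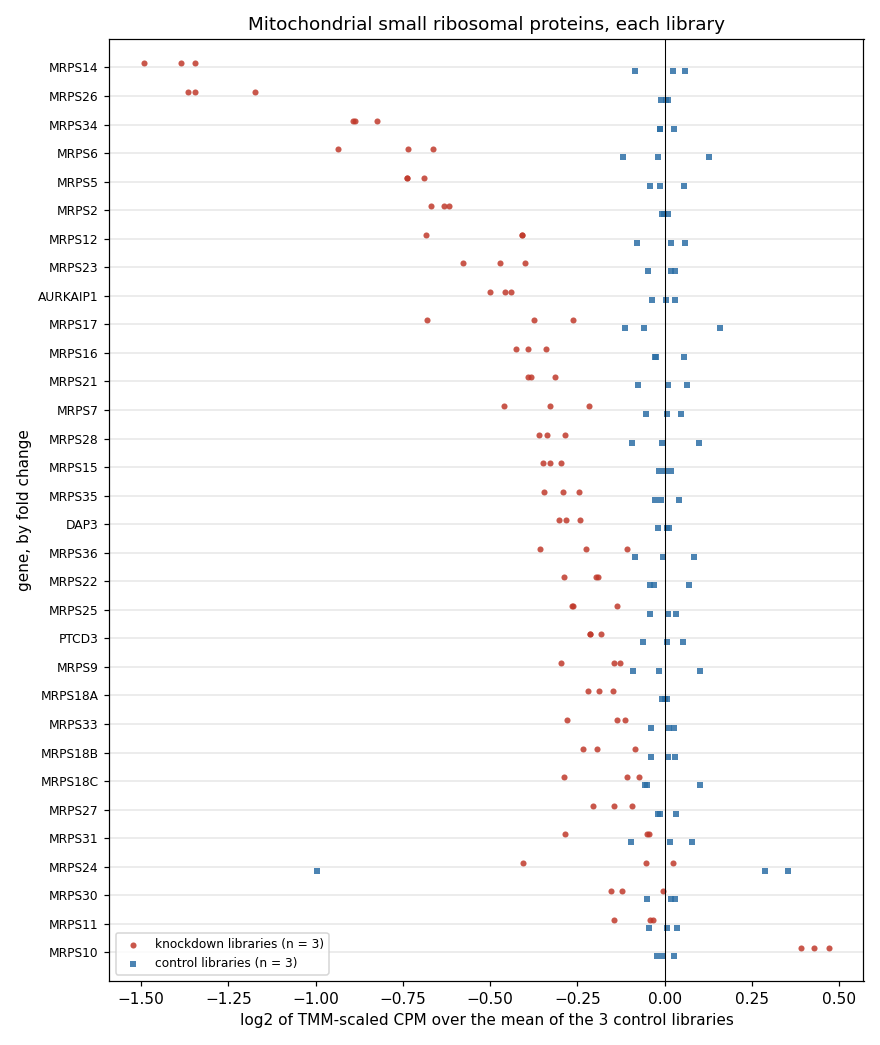
Each row is 1 of the 32 genes, and each point is 1 library, placed by the log2 ratio of its scaled count to the mean of the 3 control libraries (x axis); knockdown libraries are circles and control libraries are squares. The knockdown points lie furthest left for MRPS14 and MRPS26 and lie to the right of the control points for MRPS10 alone.

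Together the 32 genes took 0.202%, 0.213% and 0.208% of all counts in the 3 knockdown libraries, against 0.235%, 0.235% and 0.238% in the 3 control libraries. Every knockdown library was below every control library. The mean share was 0.208% ± 0.00518 in the knockdown and 0.236% ± 0.00156 in the control (SD, n = 3 each), a difference of -0.0284 percentage points, with an exact two-sided permutation p = 0.1, the smallest that 3 libraries against 3 allow. The genes of the large mitochondrial subunit with MRPL names leaned the same way: of 48 tested, 34 were called lower and 3 higher, with a median log2 fold change of -0.42. Over all tested genes 30.9% were called lower and 30.7% higher. The difference between the small and large subunit sets was not tested.

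**Figure D2:**
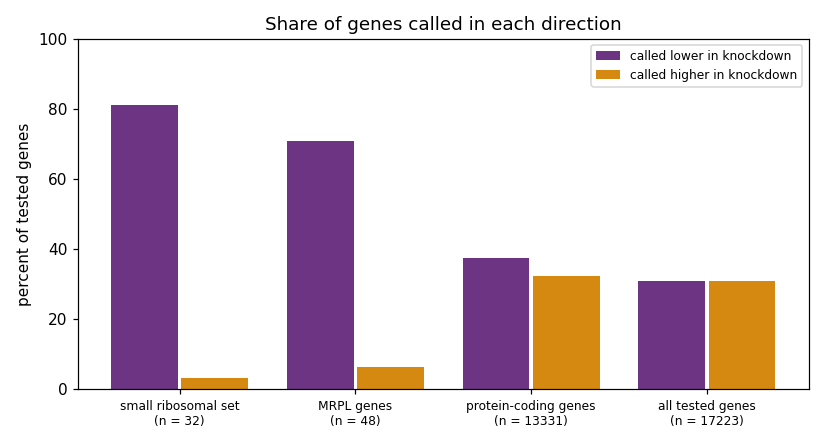
Bars give the percent of tested genes called lower (purple) and called higher (orange) in the knockdown at an adjusted p under 0.05, for the 32 small-subunit genes, the 48 MRPL genes, all protein-coding genes and all tested genes. The small-subunit bars stand at 81.2% lower and 3.12% higher, where those of all tested genes stand at 30.9% and 30.7%.

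The sequence around the transcription start was read for 30 of the 32 genes from RefSeq windows on GRCh38.p14 that run from 250 bases before the start to 50 after it. MRPS28 and MRPS36 had no window. Both strands were searched for CCGGAAG, the core letters bound by ETS factors such as GABPA, and for AAGATGGC, those bound by YY1; both GABPA and YY1 are known to act on genes of mitochondrial proteins. The ETS core was present in 13 of the 30 genes (43.3%), against 21.6% of 10828 tested protein-coding genes with a window, and the YY1 core in 9 (30%), against 6.20%. The NRF1 core GCGCATGC was present in 2 of the 30 (6.67%, against 6.23%), CCAAT in 13 (43.3%, against 43.4%) and GGGCGG in 22 (73.3%, against 76.7%). The matches had preferred places, within ranges that were set after their positions were seen. In 12 of the 30 genes (40%) an ETS core began between 40 bases before and 10 bases after the start, against 10.2% of the 10828 genes, and in 8 (26.7%) a YY1 core began 0 to 30 bases after it, against 3.71%.

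The sequences of MRPS26, MRPS34 and MRPS10 show the ETS core in genes with large falls and in the gene that was higher, and that of MRPS14 shows a large fall without one. All are written on the gene's own strand from 5′ to 3′, ending at the base before the RefSeq start except for MRPS26, where only the surroundings of the core are given, and capitals mark the ETS core in either orientation. MRPS26 lies at chr20:3046004-3046033 on the plus strand, MRPS34 at chr16:1773135-1773384 on the minus strand, MRPS14 at chr1:175023426-175023675 on the minus strand and MRPS10 at chr6:42217862-42218111 on the minus strand.
MRPS26: tccccgcgccgCTTCCGGggcacggtggcg
MRPS34: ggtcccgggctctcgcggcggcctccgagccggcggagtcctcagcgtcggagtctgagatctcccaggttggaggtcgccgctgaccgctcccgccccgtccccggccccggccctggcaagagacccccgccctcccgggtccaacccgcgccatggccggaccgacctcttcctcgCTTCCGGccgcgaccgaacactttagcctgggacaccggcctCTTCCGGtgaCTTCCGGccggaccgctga
MRPS14: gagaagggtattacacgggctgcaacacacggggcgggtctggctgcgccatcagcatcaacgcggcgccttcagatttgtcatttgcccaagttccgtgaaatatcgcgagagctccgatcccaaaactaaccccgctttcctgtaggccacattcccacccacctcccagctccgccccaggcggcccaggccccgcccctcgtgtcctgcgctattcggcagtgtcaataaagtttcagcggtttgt
MRPS10: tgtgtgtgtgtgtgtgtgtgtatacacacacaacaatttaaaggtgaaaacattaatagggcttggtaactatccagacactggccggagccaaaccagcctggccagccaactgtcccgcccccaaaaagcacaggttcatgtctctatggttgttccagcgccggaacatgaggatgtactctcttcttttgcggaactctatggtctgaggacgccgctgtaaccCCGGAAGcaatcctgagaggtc
MRPS34 held 3 ETS cores and MRPS26 and MRPS10 held 1 each. The genes with the core thus included 2 of the 3 largest falls and the only rise. The median log2 fold change was -0.36 in the 13 genes with an ETS core and -0.28 in the 17 without, a difference that was not tested.

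The YY1 core sat in a different place, on the translation start. In all 8 genes that had it 0 to 30 bases after the transcription start, the letters ATG inside the core were the annotated start codon of the protein. Other genes with the core in that range were not examined for this, so it cannot be called particular to these genes. Windows of 30 bases are shown from 5′ to 3′ on the gene's strand, with the core in capitals, for the gene with a rise (MRPS10, chr6:42217831-42217860, minus strand), 3 genes with falls (MRPS7, chr17:75261890-75261919, plus strand; PTCD3, chr2:86106237-86106266, plus strand; MRPS27, chr5:72320203-72320232, minus strand) and a gene that was not called (MRPS30, chr5:44808952-44808981, plus strand).
MRPS10: ggaccggcAAGATGGCggcgcggacagcgt
MRPS7: ggccagccAAGATGGCtgcccccgcagtga
PTCD3: agaaatcaAAGATGGCggttgtatctgctg
MRPS27: tacgctccAAGATGGCtgcctccatagtgc
MRPS30: cgcgggcaAAGATGGCggcggccaggtgtt
The 9 genes with a YY1 core had log2 fold changes with a median of -0.17, against -0.36 in the 21 without it. That difference was likewise not tested, and a match shows letters, not binding.

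**Figure D3:**
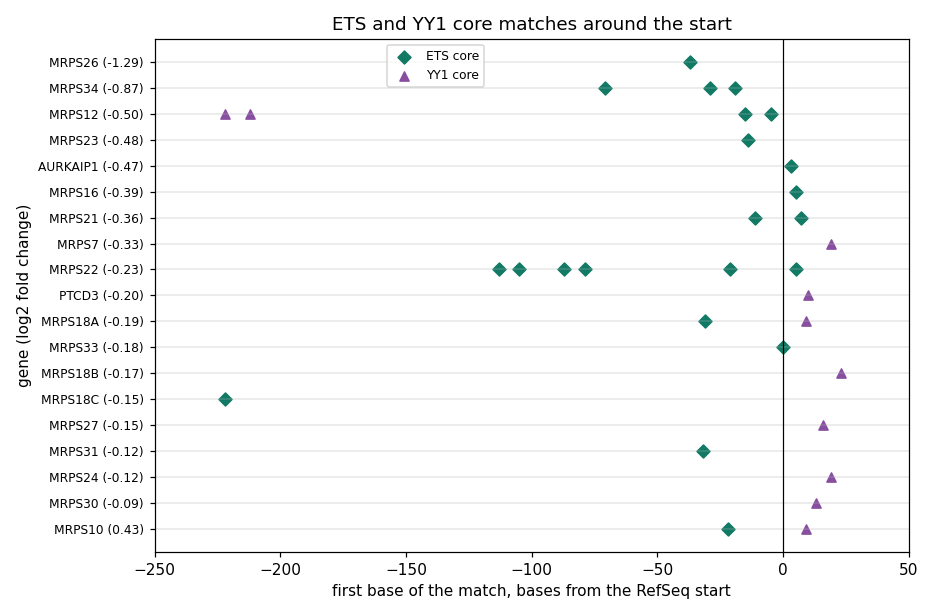
Genes with a match run down the page from the largest fall to the rise of MRPS10 (log2 fold change in brackets), and the x axis gives the distance of the first base of each match from the RefSeq start in bases; for genes with several windows all matches are drawn. Diamonds are ETS cores, of which at least 1 begins between 40 bases before and 10 bases after the start in 12 of the 13 genes. Triangles are YY1 cores, which lie 0 to 30 bases after the start in 8 of the 9 genes.

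Among the 16 proteins with a counterpart in bacterial ribosomes, 12 were called lower, 1 was higher and 3 did not pass, with a median log2 fold change of -0.35. Scaled by library totals alone, 9 of the 16 were called lower and 1 higher. Over all tested genes 30.9% were lower and 30.7% higher with TMM scaling, and 22.4% and 40.6% with library totals alone. MRPS14, a protein of the head of the subunit, had the largest fall of the 32, at 8.05, 8.28 and 7.48 CPM (counts relative to library size, scaled by TMM) in the knockdown libraries, against 19.8, 21.9 and 21.4 in the control libraries. All 3 knockdown libraries were far below the control libraries, at less than 1 count for every 2 in the control. Its log2 fold change was -1.41 ± 0.10 (SE; edgeR adjusted p = 4.01e-19), and 13.5% of its exonic bases are shared with CACYBP on the other strand. Of the 32 genes, MRPS14 was 1 of 2 whose annotated 3′ UTR held the word CTATTGA, which was examined because it was known from earlier results on these data; the other was MRPS24, and 9.76% of 13248 tested protein-coding genes held it. The site in MRPS14 (chr1:175014636-175014665, minus strand, GRCh38) and that in MRPS24 (chr7:43866565-43866594, minus strand, GRCh38) are shown with the word in capitals.
MRPS14: agctccagaacCTATTGAgcttgcagggaa
MRPS24: tctctcatctgCTATTGAataaagaccttc
The word was thus no commoner in the 32 genes (6.25%) than in tested protein-coding genes, and the low count of MRPS24 left its fold change imprecise. These shares were not matched for 3′ UTR length. Its median was 3359 bases in protein-coding genes with the word and 1240 in those without, and 674.5 in members without it.

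MRPS6, another protein of bacterial descent, had 16.7, 17.6 and 14.6 CPM in the knockdown libraries and 25.7, 27.5 and 30.4 CPM in the control libraries. The groups did not overlap. The log2 fold change was -0.77 ± 0.08 (SE; edgeR adjusted p = 5.19e-12), with 9.61% of its exonic bases shared with other genes, SLC5A3 among them. MRPS5, which lines the path of the message into the subunit, had 62.4, 64.5 and 62.3 CPM in the knockdown libraries and 103, 101 and 108 CPM in the control libraries. The libraries of each group lay close together and far from the other group, with a log2 fold change of -0.72 ± 0.05 (SE; edgeR adjusted p = 6.64e-21). MRPS2 had 64.6, 62.9 and 65.2 CPM in the knockdown libraries, against 99.6, 101 and 100 CPM in the control libraries. It too separated the groups without overlap, at a log2 fold change of -0.64 ± 0.05 (SE; edgeR adjusted p = 6.67e-19), or -0.36 once trends on length, GC content and abundance were removed. Of its exonic bases, 14.4% are shared with other genes. MRPS12, which forms part of the decoding centre, had 70.1, 84.97 and 84.9 CPM in the knockdown libraries and 114, 107 and 117.3 CPM in the control libraries. The first knockdown library was the lowest, and all 3 lay below the control. Its log2 fold change was -0.50 ± 0.06 (SE; edgeR adjusted p = 1.03e-07), or -0.22 after the same removal, and 16.3% of its exonic bases are shared with SARS2.

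MRPS10 went the other way. This protein of the subunit's head had 85.6, 90.5 and 87.9 CPM in the knockdown libraries, against 66.5, 65.1 and 64.35 CPM in the control libraries. Every knockdown library was above every control library. The mean was 88.0 ± 2.45 CPM in the knockdown and 65.3 ± 1.07 CPM in the control (SD, n = 3 each), with a log2 fold change of 0.43 ± 0.05 (SE; edgeR adjusted p = 5.68e-12). None of its exonic bases are shared with another annotated gene. MRPS10 was called higher under each alternative scaling, filter and test and without each library in turn.

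Of the other proteins with a bacterial counterpart, MRPS16, whose loss by mutation causes a human respiratory chain disease, had a log2 fold change of -0.39, MRPS21 of -0.36, and MRPS7, MRPS28 and MRPS15 each of -0.33, all called lower. Of the exonic bases of MRPS28, 35.8% also belong to another annotated gene, as do 14.8% of those of MRPS16 and 10.8% of those of MRPS7. With scaling by library totals alone MRPS28 was not called, at -0.17 (edgeR adjusted p = 0.107), and neither were MRPS17 and MRPS9. MRPS17 and MRPS9 were called lower at -0.43 ± 0.15 and -0.19 ± 0.08 (SE; edgeR adjusted p = 0.0121 and 0.0337), but 1 library could end either call. For MRPS17, which averaged 4.67 CPM in the knockdown and 6.29 CPM in the control and shares 27.0% of its exonic bases, the adjusted p was 0.0938 without the first knockdown library and 0.0794 without the third control library. For MRPS9 it was 0.164 without the first knockdown library, 0.18 without the first control library and 0.0505 without the second. MRPS9 was also not called with DESeq2 (DESeq2 adjusted p = 0.0592) or upper-quartile factors (edgeR adjusted p = 0.153). MRPS11, a protein of the platform, had 31.9, 32.1 and 29.7 CPM in the knockdown libraries and 33.0, 33.7 and 31.8 CPM in the control libraries. These ranges overlapped, and the log2 fold change was -0.07 ± 0.07 (SE; edgeR adjusted p = 0.358). MRPS24 was counted at 22, 14 and 18 reads in the knockdown libraries and 12, 29 and 27 in the control libraries, and its log2 fold change of -0.12 ± 0.42 (SE; edgeR adjusted p = 0.819) gives no direction at such low counts. It shares 23.2% of its exonic bases with the read-through gene URGCP-MRPS24, which had no count in any library.

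The 3 genes of the MRPS18 family encode related proteins that sit in different parts of the ribosome: MRPS18C takes the place of the bacterial protein, MRPS18B is a small-subunit protein of its own, and MRPS18A is found in the large subunit. MRPS18C had 13.3, 11.7 and 13.6 CPM in the knockdown libraries, against 13.7, 13.8 and 15.3 CPM in the control libraries. All knockdown values were below the control values, but 2 of them only just, and the log2 fold change of -0.15 ± 0.10 (SE) did not pass the test (edgeR adjusted p = 0.188). It shares 40.2% of its exonic bases, with ABRAXAS1. MRPS18B had 98.9, 109.8 and 102 CPM in the knockdown libraries and 113, 117.2 and 119 CPM in the control libraries. The groups did not overlap, and the log2 fold change was -0.17 ± 0.04 (SE; edgeR adjusted p = 0.000528). MRPS18A had 27.3, 28.7 and 27.9 CPM in the knockdown libraries and 31.7, 31.8 and 31.95 CPM in the control libraries. The groups were separate and the control libraries nearly equal, with a log2 fold change of -0.19 ± 0.07 (SE; edgeR adjusted p = 0.0159), and 47.0% of its exonic bases are shared, with RSPH9. With scaling by library totals alone the 3 log2 fold changes were 0.00, -0.02 and -0.03, in the order C, B and A, and none passed. After trends on length, GC content and abundance were removed they were -0.34, 0.06 and 0.01 in that order. MRPS18A was also not called with upper-quartile factors (edgeR adjusted p = 0.105).

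Among the 13 proteins particular to the mitochondrial subunit, 12 were called lower and none higher, and MRPS31 did not pass; their median log2 fold change was -0.23. Scaled by library totals alone, 6 of the 13 were called lower and none higher. Of all tested genes, TMM scaling called 30.9% lower and 30.7% higher, and library totals alone 22.4% and 40.6%. MRPS26 had 22.0, 19.5 and 19.3 CPM in the knockdown libraries, against 49.9, 49.2 and 49.7 CPM in the control libraries. The control libraries were almost equal and all knockdown libraries were far lower. The mean was 20.3 ± 1.5 CPM in the knockdown and 49.6 ± 0.358 CPM in the control (SD, n = 3 each), with a log2 fold change of -1.29 ± 0.07 (SE; edgeR adjusted p = 7.18e-25). MRPS34, a protein needed for a stable small subunit, had 48.6, 50.7 and 48.3 CPM in the knockdown libraries and 88.9, 88.85 and 91.5 CPM in the control libraries. The groups lay far apart, at a log2 fold change of -0.87 ± 0.05 (SE; edgeR adjusted p = 3.23e-23), or -0.47 once trends on length, GC content and abundance over all protein-coding genes were removed. Neither MRPS26 nor MRPS34 shares exonic bases with another annotated gene. MRPS23 had 89.4, 101 and 96.3 CPM in the knockdown libraries and 129, 135 and 136 CPM in the control libraries. It separated the groups as well, at a log2 fold change of -0.48 ± 0.04 (SE; edgeR adjusted p = 6.85e-15).

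The 3 proteins of this class without an MRPS name were all lower. AURKAIP1, first known as a partner of the Aurora A kinase, had 134, 140.1 and 138 CPM in the knockdown libraries, against 191, 185 and 194 CPM in the control libraries. The groups were well apart, with a log2 fold change of -0.47 ± 0.04 (SE; edgeR adjusted p = 1.07e-16), which turned to 0.04 once trends on length, GC content and abundance were removed. DAP3, a GTP-binding protein first described in cell death, had 132, 138 and 134 CPM in the knockdown libraries and 164, 164 and 161 CPM in the control libraries. No knockdown library reached the control, and the log2 fold change was -0.28 ± 0.04 (SE; edgeR adjusted p = 5.24e-09), or -0.16 after that removal. PTCD3, a pentatricopeptide repeat protein that binds the small ribosomal RNA, had 121, 121 and 124 CPM in the knockdown libraries and 135, 146 and 141 CPM in the control libraries. The groups did not overlap, and the log2 fold change was -0.20 ± 0.04 (SE; edgeR adjusted p = 1.24e-05), or -0.05 and not called with scaling by library totals alone.

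The remaining members of this class changed little. MRPS35 had a log2 fold change of -0.29, MRPS22, mutated in a human respiratory chain disease, of -0.23, MRPS25 of -0.22 and MRPS27 of -0.15, all called lower. MRPS25 shares 22.2% of its exonic bases with NR2C2. With scaling by library totals alone MRPS22, MRPS25, MRPS27 and MRPS33 were not called, and MRPS27 stood at 0.01. MRPS33 was called lower at -0.18 ± 0.07 (SE; edgeR adjusted p = 0.0242). Its adjusted p was 0.139 without the first knockdown library, 0.0577 without the first control library and 0.0667 without the second. With upper-quartile factors MRPS33 was not called either (edgeR adjusted p = 0.142). MRPS31 had 19.1, 22.6 and 22.5 CPM in the knockdown libraries, against 21.7, 23.5 and 24.5 CPM in the control libraries. The ranges overlapped, and the log2 fold change was -0.12 ± 0.08 (SE; edgeR adjusted p = 0.188). MRPS31 has pseudogene copies that were counted apart, of which MRPS31P4 held 164 and MRPS31P5 114 counts over the 6 libraries.

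Of the 3 proteins with MRPS names that belong elsewhere, MRPS18A, given above, and MRPS30 lie in the large subunit, and MRPS36 is a subunit of the oxoglutarate dehydrogenase complex of the citric acid cycle. MRPS30 had 76.4, 84.7 and 78.1 CPM in the knockdown libraries, against 82.1, 86.8 and 86.1 CPM in the control libraries. The second knockdown library lay among the control libraries. The log2 fold change was -0.09 ± 0.05 (SE; edgeR adjusted p = 0.0841), and without the second knockdown library it was -0.15 with an adjusted p of 0.0106. MRPS36 had 11.6, 12.7 and 13.8 CPM in the knockdown libraries and 14.8, 13.99 and 15.8 CPM in the control libraries. The third knockdown library came close to the second control library. The log2 fold change of -0.23 ± 0.10 (SE) barely passed (edgeR adjusted p = 0.042). The adjusted p was 0.181 without the first knockdown library, 0.0608 without the second, 0.0755 without the first control library and 0.147 without the third. MRPS36 was also not called with DESeq2 (DESeq2 adjusted p = 0.0815), upper-quartile factors (edgeR adjusted p = 0.139) or library totals alone (edgeR adjusted p = 0.53). Of its partners in the complex, OGDH was called lower at -0.64 and DLD at -0.17, while DLST stood at 0.02 (edgeR adjusted p = 0.64). With scaling by library totals alone DLD was not called and DLST was called higher, at 0.17, and with upper-quartile factors DLST was called higher as well, at 0.08 (edgeR adjusted p = 0.0497).

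**Figure D4:**
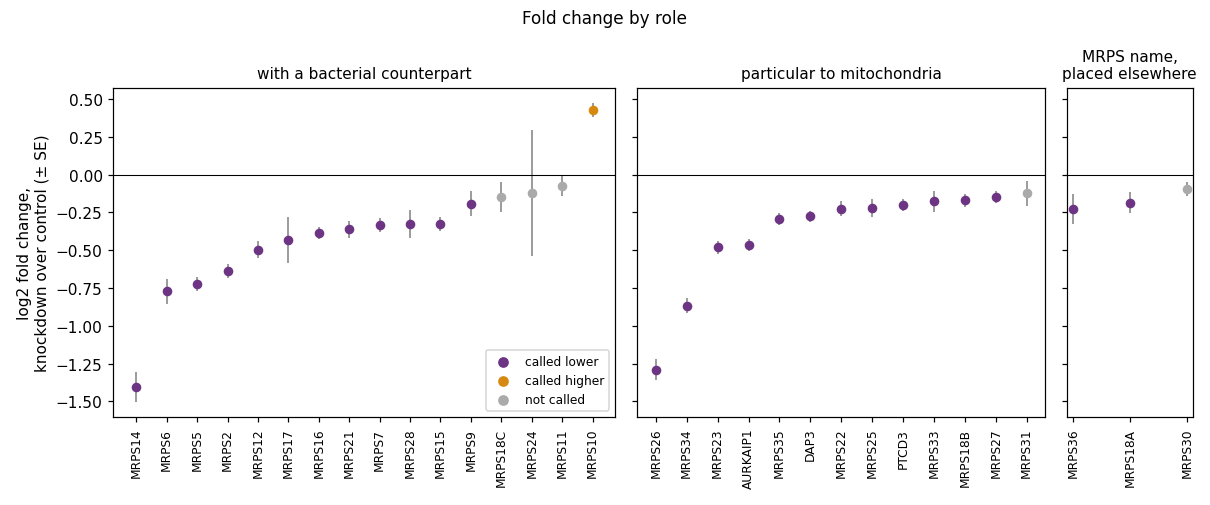
Each point is the log2 fold change of 1 gene, knockdown over control, with its SE, grouped into proteins with a bacterial counterpart (16 genes), proteins particular to mitochondria (13) and MRPS-named proteins placed elsewhere (3). Purple points were called lower, the orange point (MRPS10) higher, and grey points were not called; MRPS14 and MRPS26 are the lowest points of the first and second class.

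Levels between genes were compared as CPM per kilobase of exonic length. AURKAIP1 was the highest of the 32 in both groups, at 82.5 ± 1.75 in the knockdown and 114 ± 2.58 in the control (SD, n = 3 each). MRPS35 came next, at 77.2 ± 2.69 in the knockdown and 94.6 ± 2.34 in the control. In the control MRPS34 was 3rd at 81.8 ± 1.38, and MRPS18B and MRPS16 followed at 61.6 ± 1.52 and 59.2 ± 1.96. The ranges of that pair, mean ± SD, overlapped. In the knockdown MRPS34 was 5th, at 44.8 ± 1.20, within the spread of MRPS16 at 45.3 ± 1.39. MRPS24 was the lowest in both groups, at 0.255 ± 0.0388 in the knockdown and 0.28 ± 0.121 in the control. Its level is uncertain, because 23.2% of its exonic bases are shared with URGCP-MRPS24 and reads there may not have been assigned to it. The same holds for MRPS17, which shares 27.0% of its exonic bases. The order changed most for MRPS26, which was 15th in the knockdown and 7th in the control, and for MRPS10, which was 6th in the knockdown and 12th in the control. Over all 32, the median level was 14.2 in the knockdown and 18.3 in the control.

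Across the 32 genes the log2 fold change and the GC content of the longest transcript had Pearson's r = -0.39 and Spearman's rho = -0.38, so that genes richer in GC tended to fall more. For log2 exonic length r was 0.23 and rho 0.23, and for mean log2 CPM r was 0.05 and rho -0.06. All points come from the same 6 libraries, and these values are a description. After trends on length, GC content and abundance over all protein-coding genes were removed, the median of the 32 was -0.22, against -0.07 for protein-coding genes, and 3 genes called lower stood above 0: AURKAIP1, with 67.9% GC, at 0.04, MRPS18B at 0.06 and MRPS18A at 0.01. Other falls shrank as well, to -0.99 for MRPS26, -0.47 for MRPS34, -0.36 for MRPS2, -0.22 for MRPS12, -0.16 for DAP3 and -0.10 for MRPS35, while those of MRPS14 and MRPS6 stood at -1.52 and -0.88 and that of MRPS18C at -0.34. In the 14 genes that share no exonic bases with another annotated gene, 11 were called lower and 1 higher. Their median log2 fold change was -0.26, and 30.9% of all tested genes were called lower and 30.7% higher. The 46 pseudogene copies of these genes held 430 counts over the 6 libraries, or 0.109 for every 100 counts of the 32 genes, and 36 of them had no count.

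Other genes of mitochondrial translation, of its RNA supply and regulation, and of the oxoglutarate dehydrogenase complex were mixed. Of 46 tested, 20 were called lower (43.5%, against 30.9% of all tested genes) and 13 higher (28.3%, against 30.7%), at a median of -0.03 for the log2 fold change. With scaling by library totals alone 16 of the 46 were lower and 22 higher, where 22.4% of all tested genes were lower and 40.6% higher. CHCHD1, a small-subunit protein without an MRPS name, had 26.4, 28.2 and 25.5 CPM in the knockdown libraries, against 42.9, 38.4 and 46.5 CPM in the control libraries. The groups were far apart, with a log2 fold change of -0.68 ± 0.07 (SE; edgeR adjusted p = 6.67e-13). The RNA of the small subunit itself went the other way. MT-RNR1, the small ribosomal RNA encoded by mitochondrial DNA, had 414, 439 and 457 CPM in the knockdown libraries and 345, 352 and 372 CPM in the control libraries. All knockdown libraries were higher, at a log2 fold change of 0.29 ± 0.03 (SE; edgeR adjusted p = 9.23e-11). MT-RNR2, the large ribosomal RNA, had 2994, 3148 and 3287 CPM in the knockdown libraries and 2317, 2330 and 2434 CPM in the control libraries. It was higher in all 3 knockdown libraries as well, at 0.41 ± 0.03 (SE; edgeR adjusted p = 2.44e-18). How the libraries selected RNA is not given in the sources used here, so these values may not stand for all ribosomal RNA of the organelle.

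Of 9 factors that assemble or modify the small subunit, 4 were called lower, 2 higher and 3 not, with a median of -0.03. Over all tested genes 30.9% were lower and 30.7% higher. The lean of this list turned with scaling by library totals alone, which gave 3 lower, 4 higher and a median of 0.12. All tested genes moved too, to 22.4% lower, 40.6% higher and a median of 0.18. Upper-quartile factors gave the list 4 lower, 2 higher and a median of 0.03. Over all tested genes these gave 27.3% lower, 34.3% higher and a median of 0.09. RBFA, which matures the small subunit, averaged 7.58 ± 1.09 CPM in the knockdown and 12.96 ± 0.945 CPM in the control (SD, n = 3 each), a log2 fold change of -0.77. NOA1, a GTPase needed for mitochondrial translation, had -0.52. METTL15, which methylates the small ribosomal RNA, was higher at 0.44, whereas NSUN4, another methyltransferase of that RNA, passed at 0.15 (edgeR adjusted p = 0.044) with groups that overlapped. Its call was lost without the first or second knockdown library (adjusted p = 0.0564 and 0.374) and without the first or second control library (adjusted p = 0.175 and 0.214). The 16 translation factors and message-binding proteins had 7 lower, 2 higher and 7 not called, with a median of -0.05. The shares were 43.8% lower and 12.5% higher, against 30.9% and 30.7% of all tested genes and 37.3% and 32.2% of protein-coding ones. The balance of the 16 turned too, to 6 lower, 7 higher and a median of 0.11 with library totals alone. With upper-quartile factors it was 6 lower, 5 higher and a median of 0.01. The shares over all tested genes at these scalings are those given above. MTFMT, which formylates the initiator methionine on its transfer RNA, fell furthest, to 7.78 ± 1.71 CPM in the knockdown against 26.5 ± 0.692 CPM in the control (SD, n = 3 each), a log2 fold change of -1.76. SLIRP, which stabilises mitochondrial messages together with LRPPRC, fell by 1.33 on the log2 scale. The release factor MTRF1 was higher at 0.89 and MTRF1L at 0.19, with 34.8% of the exonic bases of MTRF1L shared with an antisense gene and an adjusted p of 0.113 without the first control library.

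Of 7 genes of mitochondrial RNA synthesis and decay, 4 were called lower, 2 higher and 1 not, with a median of -0.33. Over all tested genes 30.9% were called lower and 30.7% higher. TFB2M, a transcription factor of mitochondrial DNA, had a log2 fold change of -0.77 and TFAM, which packages that DNA, of -0.56. TEFM, the elongation factor, of whose exonic bases 26.1% are shared, was higher at 0.33 and PNPT1, an RNA exonuclease, at 0.17, and both calls were fragile. That of TEFM was lost without knockdown library 2 or 3 (adjusted p = 0.197 and 0.0797) and without control library 2 or 3 (adjusted p = 0.0655 and 0.0622), and that of PNPT1 without the third knockdown library (adjusted p = 0.0891). Of 8 nuclear regulators of mitochondrial genes, 2 were called lower, 5 higher and 1 not. Over all tested genes the shares were 30.9% lower and 30.7% higher. NRF1 was lower at -0.41 and ESRRA, an orphan nuclear receptor, at -0.23, while the coactivator PPARGC1A was higher at 0.83 and YY1 at 0.27. GABPB1, MYC and PPRC1 were also called higher, at 0.26, 0.12 and 0.10. PPRC1 was not called with RLE size factors (edgeR adjusted p = 0.0507). GABPA, an ETS factor, was not called, at 0.03 (edgeR adjusted p = 0.711). With scaling by library totals alone ESRRA was not called (adjusted p = 0.218), and GABPA was higher at 0.18 (adjusted p = 0.00462).

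**Figure D5:**
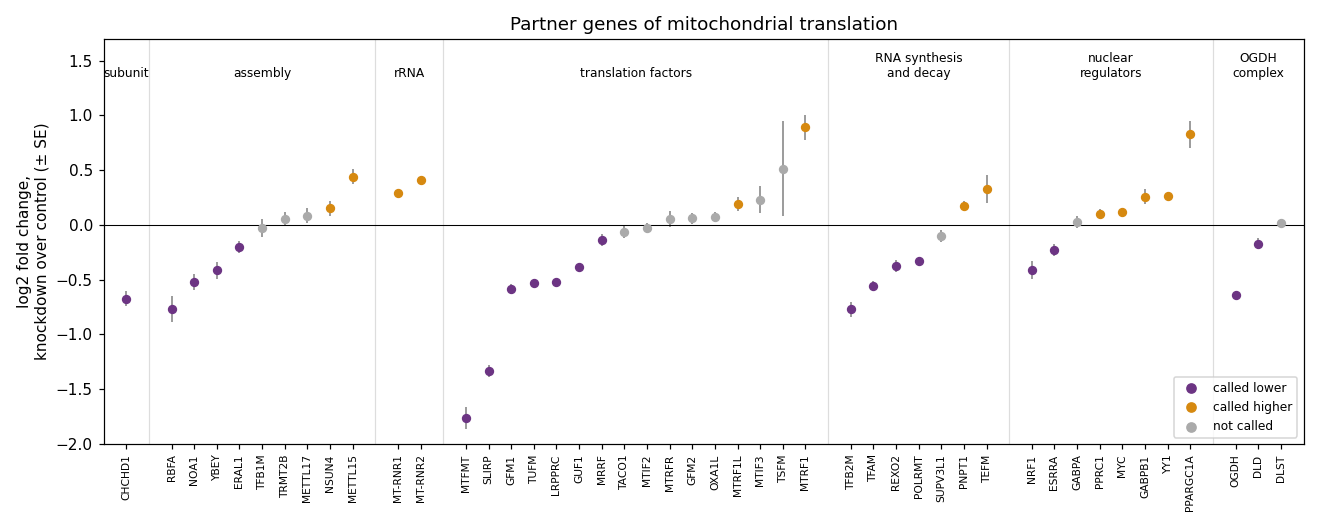
Points give the log2 fold change, knockdown over control, with its SE for the 46 other genes of mitochondrial translation, its regulators and the oxoglutarate dehydrogenase complex (OGDH complex), in groups from left to right. Purple points were called lower, orange points higher and grey points not called; MTFMT is the lowest point at -1.76, and MTRF1 the highest at 0.89.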

How the data were processed

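RNA of 6 NCI-H1299 libraries was analysed, 3 knockdown and 3 control. The authors deposited raw counts of reads for each Ensembl gene in a single table. The tools named per the submitters' processing notes are featureCounts 2.0.1, STAR 2.7.0d, DESeq2 1.30.1 and Trim Galore 0.6.6, with the build hg38. Not given in the sources used here are their order, the strand setting, the release of the annotation and how multiply aligned reads were handled. Without a stated strand setting, reads of genes with shared exonic bases or near-identical copies are uncertain, so the percent of exonic bases shared with another gene on either strand is given for the members with more than 10% and, of the other genes, for TEFM and MTRF1L. The labels name no batch.

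The filter was filterByExpr (minimum count 10) of edgeR 4.0.16, and after TMM scaling the robust quasi-likelihood test of edgeR was run in R 4.3.3 on group alone. Adjustment of p-values (Benjamini-Hochberg) was over all 17223 tested genes, and genes with an adjusted p under 0.05 count as called. Fold changes are log2 of knockdown over control, with an SE taken from the F statistic, and CPM values are scaled by TMM. At these depths the common biological coefficient of variation was 4.67%. The gene test was checked on simulated counts in which few genes changed, as many up as down. It called 100 of 100 genes changed by 1 log2 and 90 of 100 changed by 0.5, with the right sign. Of 16667 unchanged genes it called 11. Far more genes were called in the data, so this check could not test the scaling. Libraries with the same replicate number showed no shared deviation from their group means, which cannot show how they were prepared.

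Names came from a name table for 60261 identifiers and from GENCODE v29 for 335 more; biotypes, lengths, GC content, 3′ UTRs and shared exonic bases came from GENCODE v29 (GRCh38), and promoter windows came from RefSeq.

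The members and gene lists were chosen with earlier results of these data known. Values per library are given for the 8 members with the largest called falls, each called rise, the 4 members not called with the smallest p-values, and MRPS18A, MRPS18B, MRPS18C, DAP3, AURKAIP1, PTCD3 and MRPS36. Per list of other genes, up to 2 called falls and 2 called rises are named, with MT-RNR1, MT-RNR2 and CHCHD1. GABPA, GABPB1, MYC, PPRC1, DLST and the counts of MRPS24 were added after their values were seen. Alternatives were other scalings (RLE, upper quartile, library totals), no filter, DESeq2 1.42.0, the replicate number as a block, leaving out each library, removal of trends on length, GC content and abundance, and a denominator of protein-coding counts. Their use on the other genes of mitochondrial translation was added after seeing the data.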

Additional observations from a re-analysis of the deposited data

How the results depend on the processing

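The count of 26 genes lower and 1 higher was also 26 and 1 with RLE size factors and with no filter, and 24 and 1 with DESeq2. The calls of MRPS9 and MRPS36 were lost with DESeq2. Over all genes with an adjusted p, RLE factors gave 31.4% lower and 30.2% higher, no filter 15.4% and 14.8%, and DESeq2 22.1% and 19.9%. Upper-quartile factors gave 22 lower and a median log2 fold change of -0.23, losing the calls of MRPS9, MRPS18A, MRPS33 and MRPS36. They called 27.3% of all tested genes lower and 34.3% higher. Library totals alone gave 15 lower and a median of -0.13, with MRPS27 at 0.0063. That scaling moved the median of all tested genes from 0.03 to 0.18 and called 22.4% of them lower and 40.6% higher. The cause of these shifts was not tested. Removing trends on length, GC content and abundance gave a median of -0.22. Without 1 library, 22 to 26 genes were lower and 1 was higher, with medians from -0.31 to -0.27. Of all genes tested then, 28.6% to 29.1% were lower and 27.8% to 28.3% higher. The difference in the share of counts ran from -0.0309 to -0.0257 percentage points without 1 library. With protein-coding counts as the denominator it was -0.0272. With the replicate block, 26 genes were lower and 1 higher, at a median of -0.29, and no call among the 32 was lost. Of all tested genes 30.6% were then lower and 30.3% higher. Libraries with the same number had deviations from their group means that correlated at -0.000751, -0.00642 and -0.0235. These values show no shared deviation by number, but cannot show how the libraries were prepared. Of the other 46 genes, 22 were higher with library totals alone, against 13, and NSUN4 was not called with RLE size factors, no filter, DESeq2 or the replicate block, nor MTRF1L and TEFM with DESeq2. Low counts limit MRPS24 and MRPS17 most. The part of their shared exonic bases in these low counts was not tested.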
